A study of Mus musculus with 22 samples.

Results

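The transgelins Tagln and Tagln2, the calponins Cnn1, Cnn2 and Cnn3, caldesmon (Cald1), the tropomyosins Tpm1 and Tpm2, smoothelin (Smtn) and leiomodin 1 (Lmod1) encode proteins that sit on the actin filaments of smooth muscle. These 10 genes were taken by symbol from a deposited table of 28099 genes, with earlier results of these data known. All 10 passed the filter on low signal. Arterial smooth muscle cells had been sorted by fluorescence from 7 mouse tissues, and RNA was measured in 22 libraries, with 4 libraries of intestine and 3 of every other tissue, which were aorta, heart, lung, kidney, stomach and bladder. The question put to the data was how these cells differ between tissues, and the series names no reference tissue.

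All the mice carried an Acta2-CreERT recombinase and an R26-GFP reporter and were injected with tamoxifen on 3 days, each dose being 0.75 mg for every 10 g of weight. The genotype is labelled Cspg4-Dre/Acta2-CreERT/R26-GFP in 6 tissues and carries an inducible Dre (DreERT) in heart, so heart and its genotype cannot be told apart. The drivers limit the sort to cells in which the Acta2 and Cspg4 loci acted on the reporter, and these loci also act in pericytes and other mural cells. The labels do not say whether libraries of a tissue come from separate animals, so the p-values measure only the spread between these libraries. Age, sex and strain background are not given in the sources used here.

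In smooth muscle, myosin pulls on filaments of actin, and the proteins on those filaments set how readily it can do so. Tropomyosin lies along the filament and stabilises it, caldesmon and calponin bind actin and restrain the myosin motor, and leiomodin starts new filaments. Transgelin and smoothelin bind actin as well, and Tagln, Cnn1, Smtn and Lmod1 are widely used as marks of contractile smooth muscle. Tagln2, Cnn2 and Cnn3 are the broadly expressed relatives, found in many cell types that are not muscle.

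Many genes for smooth muscle proteins depend on serum response factor, which binds the CArG box, and TEAD factors bind the sequence CATTCC. Both motifs were searched on both strands, with no mismatch allowed, in the 250 bases before the start of each gene in RefSeq (GRCm38.p6). That table held 10 promoters for 9 of the 10 genes, with 2 for Cald1, and had no entry for Tagln. The CArG box was in 1 of the 10 promoters, that of Cnn2, and in 1.47% of all 32851 promoters of this length. CATTCC or its reverse complement GGAATG was in 5 of the 10, those of Tagln2, Cald1, Tpm1, Smtn and Lmod1, and in 12.6% of all promoters. No member promoter held both. The promoter of Lmod1, the gene with the widest tissue difference over the 18 deeper libraries described below, and that of Cnn2, which held the CArG box, are shown with the motif in capitals.
Lmod1: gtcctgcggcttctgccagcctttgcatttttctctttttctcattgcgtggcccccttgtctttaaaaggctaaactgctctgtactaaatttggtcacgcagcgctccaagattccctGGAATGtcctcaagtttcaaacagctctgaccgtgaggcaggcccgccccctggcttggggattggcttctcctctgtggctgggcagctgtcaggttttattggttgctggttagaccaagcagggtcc
Cnn2: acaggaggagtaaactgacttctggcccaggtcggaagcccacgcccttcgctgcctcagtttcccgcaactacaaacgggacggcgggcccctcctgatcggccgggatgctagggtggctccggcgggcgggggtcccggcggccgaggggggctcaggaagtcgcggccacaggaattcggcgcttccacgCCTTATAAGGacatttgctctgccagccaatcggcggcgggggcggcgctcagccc
The Lmod1 promoter lies at chr1:135324563-135324812 on the plus strand, with the CATTCC match beginning 130 bases before the start. The Cnn2 promoter lies at chr10:79988350-79988599 on the plus strand, with the CArG box beginning 56 bases before it. A match describes the letters and says nothing of binding in these cells.

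The deposited values are a signal, taken here as read counts scaled per library and rounded. The number of reads behind a value was rebuilt from the size of 1 read in each library, and the depths found this way were very unequal. The aorta libraries held 629456, 1540366 and 1927765 rebuilt reads and heart 3 held 817157, whereas the other 18 libraries held 4389363 to 12708423. A read was therefore worth 3.3027 to 9.4205 signal in aorta, 8.0895 in heart 3 and 0.4216 to 1.3415 elsewhere. Depth and tissue cannot be told apart in aorta, so the members' differences between tissues are also given over the 18 libraries without aorta and heart 3. Depth was not equal among those 18 either. Rebuilt reads were 9176695 to 12708423 in intestine and 8520778 to 11527680 in stomach. They were 6469359 and 7647488 in heart 1 and 2, 6035698 to 8554570 in lung, 4389363 to 8611845 in bladder and 4943883 to 12475330 in kidney. The part of this in the differences over the 18 libraries was not tested. All 7 genes taken as defining smooth muscle (Acta2, Myh11, Myl9, Mylk, Des, Synpo2 and Actg2) had a mean signal of at least 10 in every tissue. Their summed signal was lowest in bladder 3, at 9700, against 14116 to 93394 in the other libraries outside bladder and 16422 and 19016 in bladder 2 and 1. The 12 fibroblast markers, including Col1a1 and Dcn, summed to 36906 to 91267 in aorta and 46835 to 68155 in bladder, and to 14533 to 36453 in the other 5 tissues. The 12 epithelial markers summed to 7777 to 10270 in stomach and 4714 to 6339 in intestine, the tissues with the most lower members, and to 37 to 146 in heart, 198 to 1475 in aorta, 1618 to 1801 in lung and 1371 to 5176 in kidney. Bladder 3 also had the highest bladder sum of the 12 epithelial markers, 6600 against 630 and 776, and of the 12 leukocyte markers, 3824 against 2652 and 1783. Pericyte markers summed to 17936, 8530 and 4349 in the bladder libraries and to 23270 to 58834 in heart, and skeletal muscle markers to 25571 in aorta 3 against 489 and 994 in aorta 1 and 2. Endothelial markers summed to 2451 to 4887 in aorta and 2782 to 4778 in bladder, and to 5719 to 15877 in the other 5 tissues. Of 12 visceral smooth muscle markers, 12 reached a mean signal of 10 in intestine and 11 in stomach, against 7 in each other tissue. Their summed signal was 9838 to 12205 in intestine, 7748 to 8951 in stomach and 10538 to 12402 in lung. The part of these other cell types in the results was not tested. In bulk RNA, fewer cells of a type and less RNA per cell cannot be told apart.

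Every member differed across the 7 tissues in the F test of limma, a linear model fitted to log2(signal + 1) of all 16917 tested genes with Benjamini-Hochberg adjustment. The limma adjusted p ran from 1.9e-07 for Cnn3 to 0.000433 for Tpm2, and 59.6% of all tested genes passed the same test. All 10 passed again over the 18 libraries, beside 71.1% of all genes. With edgeR's quasi-likelihood test on the rebuilt reads 10 of 10 passed, beside 57.4%, and over the 18 libraries 9 of 10, beside 68.2%. Against the mean of the other 6 tissues all 10 were higher in aorta, where 9.15% of all tested genes were, and none were lower, where 42.8% were. The median log2 difference in aorta was 1.69 for the members and -1.04 for all genes, and edgeR's scaling moved the latter to -0.40. In heart 3 of 10 were higher, Tagln, Smtn and Lmod1, beside 6.03% of all genes, and none were lower, beside 12.4%. Lung had 1 higher member, Lmod1, beside 4.43%, and none lower, beside 3.48%. No member was higher in kidney, bladder, stomach or intestine, where 6.35%, 8.31%, 13.4% and 15.5% of all genes were. Kidney had 2 lower, Tagln2 and Cnn3, beside 4.11% of all genes, and bladder had 3 lower, Tagln, Smtn and Lmod1, beside 7.40%. Stomach had 6 lower, beside 6.93%, namely Tagln, Cnn2, Cnn3, Cald1, Smtn and Lmod1. Intestine had 9 lower, all but Cald1, beside 9.97%.

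**Figure D1:**
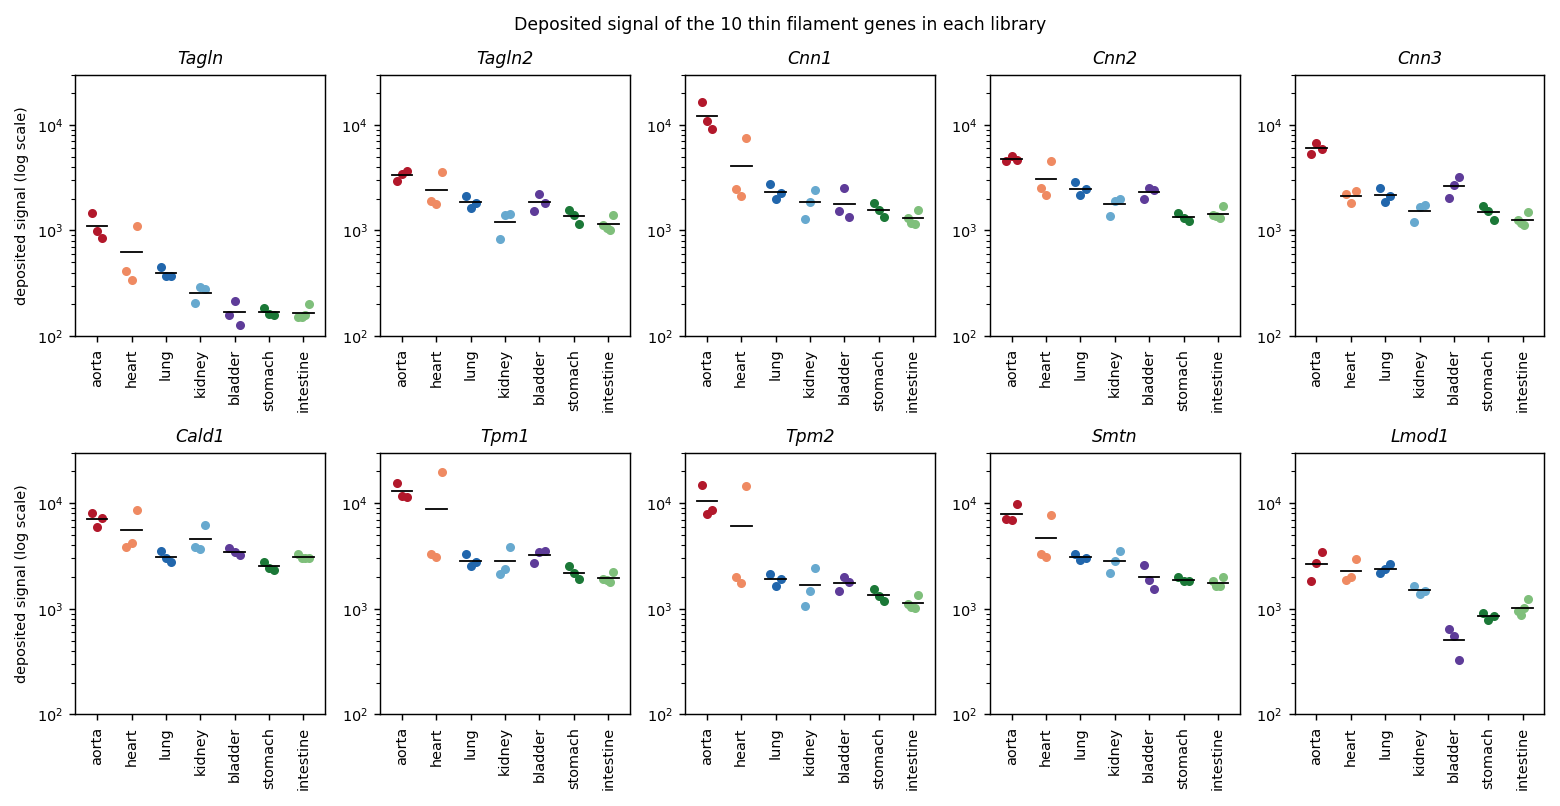
Deposited signal (log axis) of each of the 10 genes in every library, by tissue; points are single libraries and bars are tissue means over 3 libraries, or 4 for intestine. Aorta and heart 3 lie highest for most genes, while Lmod1 in bladder lies at 330 to 647, below every other tissue.

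Over the 18 libraries leiomodin 1 had the widest difference between a pair of tissues among the members, a log2 of 2.28, where Tagln came next with 1.28. Over the 22 libraries Cnn1, Tpm2, Tpm1 and Tagln spanned more, 3.19, 3.16, 2.72 and 2.71 against 2.39 for Lmod1, each from its highest level in aorta. Lmod1, which nucleates actin filaments in smooth muscle (ENSMUSG00000048096, mm39 chromosome 1, 135252545 to 135295803, plus strand), had a signal of 2168, 2375 and 2680 in lung and 1828, 2712 and 3471 in aorta. In heart it was at 1861, 2007 and 2936, and in kidney at 1635, 1373 and 1467. It was at 962, 883, 1022 and 1245 in intestine, 922, 783 and 864 in stomach, and 647, 556 and 330 in bladder. Bladder was thus lowest, with no overlap with any other tissue, and stomach and intestine overlapped each other but lay below the remaining 4 tissues. Against the mean of the other tissues Lmod1 was lower in bladder by a log2 of -1.72 ± 0.19 (SE, limma adjusted p = 6.5e-06) and in stomach by -0.79 ± 0.19 (adjusted p = 0.00575), the latter ended without stomach 2. It was higher in aorta by 1.07 ± 0.19, in lung by 0.95 ± 0.19 (limma adjusted p = 0.00399) and in heart by 0.82 ± 0.19 (adjusted p = 0.00589). The heart call ended without heart 3. In intestine the difference of -0.49 ± 0.17 (limma adjusted p = 0.0405) passed narrowly, and among the settings that ended it were the replicate block and the 18 libraries.

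The order of Lmod1 ran from aorta through lung, heart, kidney, intestine and stomach to bladder. Of the neighbours in that order only stomach and bladder differed in limma, by 0.80 ± 0.25 (adjusted p = 0.0343), beside 16.3% of all genes in that pair. That call was lost in edgeR on the rebuilt reads of 22 libraries (adjusted p = 0.0589) and passed there over the 18 (adjusted p = 0.0103). Lmod1 differed in 14 of the 21 tissue pairs, where over all genes 20.9% of gene by pair tests passed. Lung exceeded bladder by 2.28 ± 0.25, which is 4.87-fold on this scale (limma adjusted p = 7.46e-06), where 10.1% of all genes differed. Over the 18 libraries Lmod1 differed in 12 of 15 pairs, beside 29.2% of gene by pair tests. There the difference in lung was 1.20 ± 0.16 (limma adjusted p = 3.55e-05), in heart 0.83 ± 0.19 and in bladder -1.54 ± 0.16 (adjusted p = 2.53e-06). Kidney then also exceeded intestine, by 0.54 ± 0.19 (limma adjusted p = 0.0451), beside 24.7% of all genes. The low level in bladder was present in each of its 3 libraries, and the part of other cell types in it was not tested.

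Reads and signal gave different pictures of the members, and Lmod1 was the one whose reads varied most. Over all 22 libraries its signal spanned 10.52-fold and its rebuilt reads 18.48-fold, from 194 in aorta 1 to 3585 in kidney 1. Tpm2 did the reverse, with a signal spanning 14.75-fold and reads spanning only 1.92-fold, from 1346 in bladder 3 to 2584 in aorta 3. Cnn1 spanned 14.12-fold in signal and 3.18-fold in reads, and Tpm1 10.99-fold and 2.85-fold. The myosin light chain gene Myl9 held 1.22-fold different reads over the 22 libraries while its signal spanned 20.87-fold. Reads of these genes therefore hardly followed depth, and their signal followed what 1 read was worth. As a description over the 22 libraries, log2 signal correlated with log2 of the worth of 1 read at r = 0.99 for Tpm1 and Tpm2 and 0.94 for Cnn1. Next came Cnn2 at 0.91, Tagln2 at 0.89, Cald1 at 0.88, Tagln at 0.87, Smtn at 0.86 and Cnn3 at 0.83. Only Lmod1 lay well below, at 0.44. Over the 18 deeper libraries r was 0.97 for Tpm1, 0.92 for Tpm2 and Cnn3, 0.85 for Cnn2, 0.82 for Tagln2 and 0.67 for Cnn1. It was 0.48 for Cald1, 0.44 for Smtn, 0.36 for Tagln and -0.10 for Lmod1. The points share the library, since the worth of 1 read scales every gene in it. Where reads stop rising with depth, here called a read ceiling, a higher signal need not be more RNA, and its part in the tissue differences was not tested. At least 1 library held 0.5 reads for each exonic base in 9 of the 10 members, all but Tagln, and in 16.8% of the tested genes whose length is known.

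**Figure D2:**
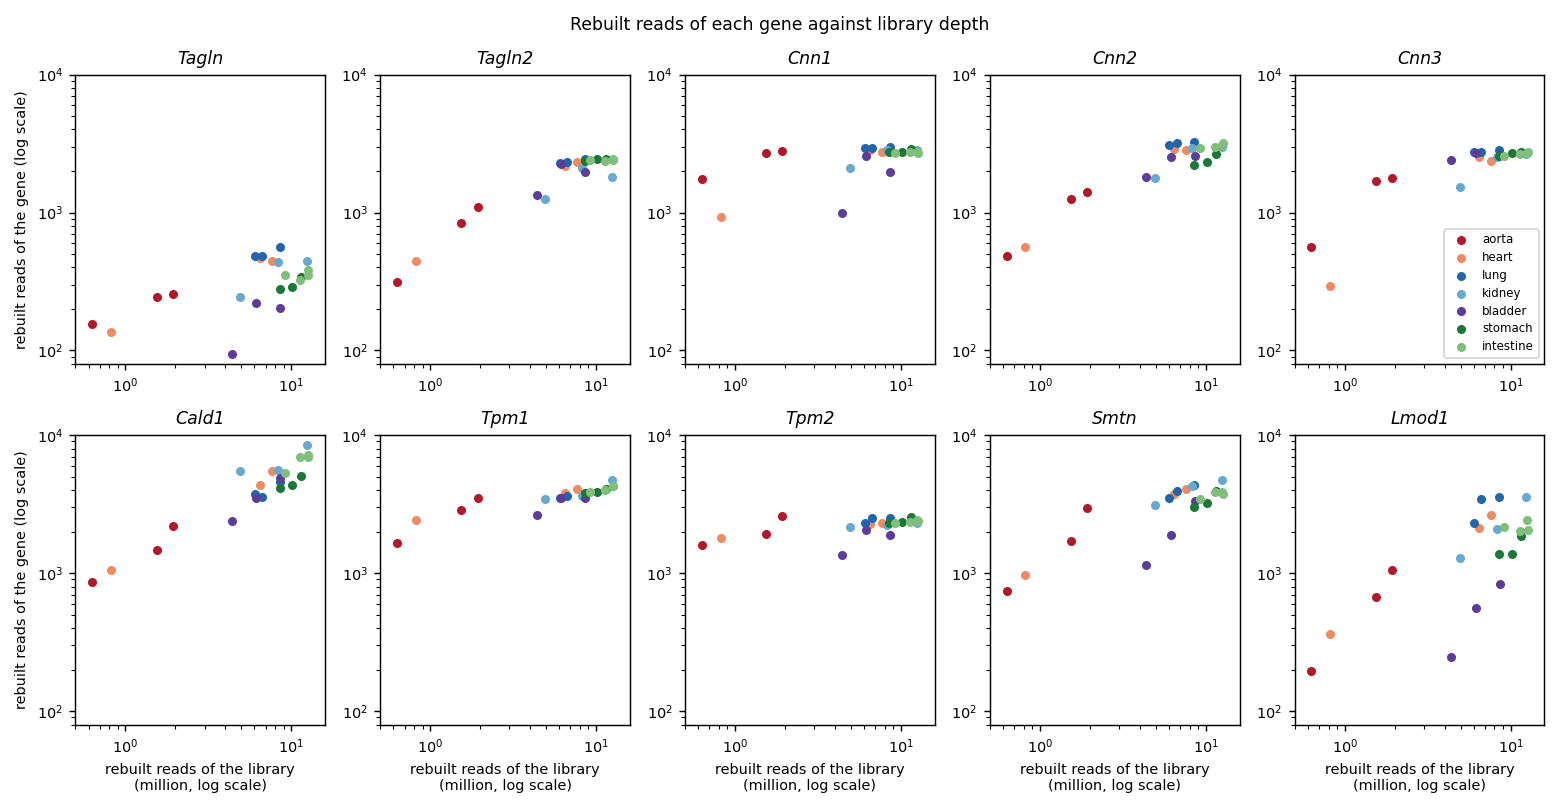
Rebuilt reads of each gene against the rebuilt reads of the library, both on log axes, with 1 point per library coloured by tissue. Tpm2 lies nearly flat, between 1346 and 2584 reads, whereas Lmod1 and Cald1 spread from 194 to 3585 and from 864 to 8517 reads.

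Libraries of like depth were also set side by side. The library nearest the median depth of the 18 was taken from each of the 6 tissues, a rule chosen after the values were seen, which gave heart 2, lung 2, kidney 2, bladder 1, stomach 1 and intestine 4 with 7647488 to 9176695 reads. Lmod1 held 3581 reads in lung 2, 2625 in heart 2, 2157 in intestine 4, 2080 in kidney 2, 1386 in stomach 1 and 833 in bladder 1, a 4.3-fold range. Tagln followed with 559 in lung 2, 445 in heart 2, 439 in kidney 2, 352 in intestine 4, 278 in stomach 1 and 203 in bladder 1, a 2.75-fold range. The other 8 members spanned 1.17-fold (Tpm1) to 1.5-fold (Cnn1). For the 3149 genes with at least 500 reads in all 6 libraries, a set without Tagln, the median range was 1.84-fold. Over all 16917 tested genes the median range was 3.96-fold. Matching depth does not remove the read ceiling, so the narrow ranges do not show that RNA levels were alike. There is 1 library per tissue here and so no test.

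**Figure D3:**
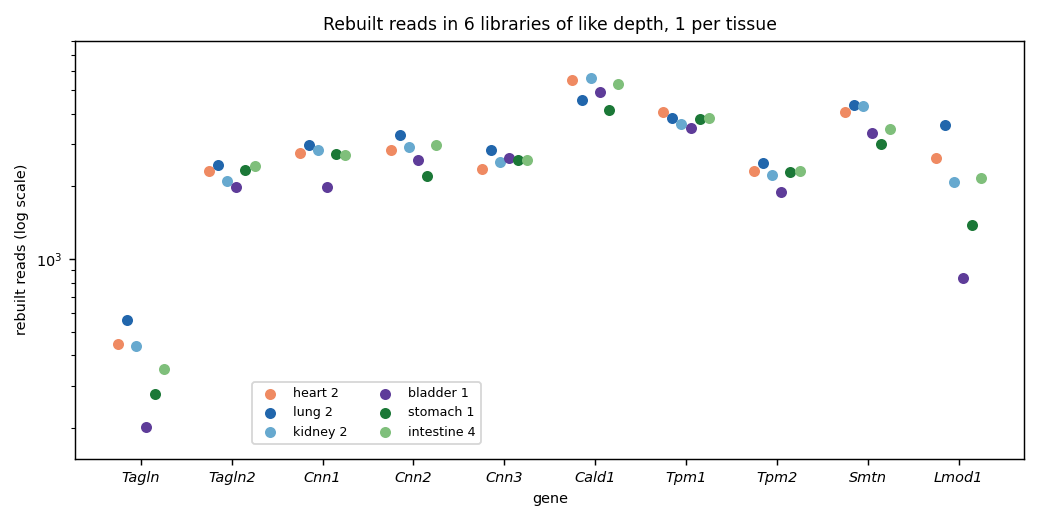
Rebuilt reads (log axis) of the 10 genes in 6 libraries of 7647488 to 9176695 reads, 1 per tissue. Bladder 1 holds the fewest and lung 2 the most reads for Lmod1 and Tagln, while the 6 points of Tpm1 and Tagln2 lie within 1.17-fold and 1.24-fold.

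Transgelin was low in bladder, stomach and intestine alike. Tagln (ENSMUSG00000032085, mm39 chromosome 9, 45840917 to 45847356, minus strand) was at 1470, 997 and 842 in aorta, 411, 340 and 1108 in heart and 452, 371 and 373 in lung. It was at 204, 290 and 278 in kidney and at 158, 217 and 127 in bladder. In stomach it was at 185, 162 and 159, and in intestine at 153, 152, 160 and 203. Lung lay above kidney, bladder, stomach and intestine with no overlap, and bladder, stomach and intestine overlapped. Tagln differed from the mean of the other tissues by 2.09 ± 0.28 in aorta (limma adjusted p = 1.32e-05) and 0.93 ± 0.28 in heart (adjusted p = 0.0257), the latter ended without heart 3, with rescaling and with array weights. It was lower by -1.07 ± 0.28 in bladder (limma adjusted p = 0.0124), a call that ended without bladder 3 or without the aorta libraries, by -1.02 ± 0.28 in stomach, ended without the aorta libraries or without stomach 2 or 3, and by -1.04 ± 0.25 in intestine (adjusted p = 0.00429). Without aorta and heart 3, Tagln was higher in lung, by 0.90 ± 0.18 (limma adjusted p = 0.00137), and in heart, by 0.79 ± 0.21, and lower in bladder, stomach and intestine, by -0.63 ± 0.18, -0.58 ± 0.18 and -0.61 ± 0.16. Over the 22 libraries Tagln differed in 11 of 21 tissue pairs, beside 20.9% of gene by pair tests, and no neighbours in its order differed. Over the 18, lung exceeded kidney by 0.64 ± 0.23 (limma adjusted p = 0.0436), beside 33.5% of all genes.

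The level of Tagln is uncertain. In GENCODE M21, 67.9% of its 1988 exonic bases lie under exons of genes on the opposite strand, 1241 bases under Gm48529 and 108 under Pcsk7, which leaves 639 bases of its own. The sources used here do not give how reads in shared stretches or on either strand were counted, so reads of Tagln and its antisense partner cannot be told apart. Gm48529 itself had a signal of at most 62. Per kilobase of all its exons Tagln was at 200.5 ± 23.3 signal in lung (SD, n = 3), against 889.1 ± 121.9 for Tagln2 and 852.5 ± 147.3 for Cnn1. Its reads came to at most 0.281 per exonic base, or 0.875 per base of its own. Exons on the opposite strand also cover 17.7% of Cnn3 (Gm42928) and 16.3% of Smtn (Gm11946), and none of the other 7 members.

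Tagln2, the broadly expressed transgelin (ENSMUSG00000026547, chromosome 1, 172327614 to 172334947, plus strand), ran from 822 in kidney 1 to 3643 in aorta 3. It was higher in aorta by 1.10 ± 0.19 and lower in intestine by -0.71 and in kidney by -0.65 (limma adjusted p = 0.000187, 0.00487 and 0.0374). The aorta call ended with array weights. The kidney call ended under 12 of 32 alternatives, among them edgeR on rebuilt reads and the 18 libraries. Within a library, where scaling cancels, the log2 ratio of Tagln over Tagln2 was -3.27, -3.34 and -3.82 in bladder against -3.09 or higher in the other 19 libraries, so bladder lay below all of them. The mean difference of -1.14 had an exact two-sided permutation p of 0.0013, with an adjusted p of 0.0182 over 28 ratio tests. Without aorta and heart 3 it was -0.95 (exact permutation, adjusted p = 0.0147 over 24 tests). In aorta the ratio was higher by 1.00, with an adjusted p of exactly 0.05 that does not pass. Tagln2 held up to 1.182 reads per exonic base, so the ratio can also move with depth.

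Among the calponins, Cnn1 belongs to differentiated smooth muscle and Cnn2 and Cnn3 to many cells. Cnn1 (ENSMUSG00000001349, chromosome 9, 22010512 to 22020926, plus strand) was at 16382, 10912 and 9228 in aorta, 2492, 2107 and 7547 in heart and 2764, 1966 and 2267 in lung. It was at 1294, 1869 and 2399 in kidney, 1539, 2522 and 1328 in bladder, 1813, 1555 and 1330 in stomach and 1313, 1174, 1160 and 1562 in intestine. Aorta lay above every other library, heart 3 next, and the other 5 tissues overlapped in part. Cnn1 was higher in aorta by 2.63 ± 0.28, or 6.17-fold (limma adjusted p = 1.1e-06), the largest of any member over the 22 libraries, and lower in intestine by -1.10 ± 0.25 (adjusted p = 0.00289), the latter ended without the aorta libraries. Its reads, however, were 1739, 2692 and 2794 in aorta and 2706 to 2768 in intestine, at 629456 to 1927765 against 9176695 to 12708423 reads of depth. In the depth-matched libraries Cnn1 had 1982 reads in bladder 1 and 2706 to 2965 in the other 5. In the 18 libraries the intestine difference was -0.56 ± 0.17 (limma adjusted p = 0.0158), and in the other 5 tissues Cnn1 did not pass.

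Cnn3 (ENSMUSG00000053931, chromosome 3, 121220146 to 121251856, plus strand) was at 5294, 6810 and 5899 in aorta, 2037, 2669 and 3225 in bladder and 2552, 1872 and 2128 in lung. It was at 2213, 1802 and 2370 in heart, where heart 3 did not stand apart as it did for Cnn1. Kidney had 1214, 1662 and 1741, stomach 1713, 1518 and 1266, and intestine 1253, 1177, 1139 and 1490. Cnn3 was higher in aorta by 1.73 ± 0.15 (limma adjusted p = 8.07e-08) and lower in intestine, stomach and kidney, by -0.89, -0.61 and -0.57. Over the 18 libraries it was higher in bladder, by 0.65 ± 0.15 (limma adjusted p = 0.00317), beside 14.9% of all genes, and the kidney and stomach calls ended, as they also did without kidney 1 and without stomach 3. Aorta and bladder also had the highest fibroblast sums, 36906 to 91267, and the part of fibroblasts in these levels was not tested.

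Cnn2 (ENSMUSG00000004665, chromosome 10, 79824418 to 79831896, plus strand) ran from 1234 in stomach 3 to 5071 in aorta 2. It was higher in aorta by 1.29 ± 0.17 and lower in stomach by -0.86 and intestine by -0.73, and each of these calls held in every alternative run. In the deeper 18, Cnn2 was also higher in lung by 0.48 ± 0.13 (limma adjusted p = 0.0106) and narrowly in bladder by 0.35 ± 0.13 (adjusted p = 0.0476), the latter not in edgeR on rebuilt reads.

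The calponin ratios differed in aorta and bladder. The log2 ratio of Cnn1 over Cnn2 was 1.84, 1.11 and 0.98 in aorta against -0.88 to 0.72 elsewhere, a mean difference of 1.35. Its exact two-sided permutation p of 0.000649 is the smallest that 3 libraries against 19 can give, with an adjusted p of 0.0182. The 0.72 belonged to heart 3, the other shallow library. Without aorta and heart 3 this ratio did not pass in any tissue. Cnn1 over Cnn3 did not pass in any tissue over the 22 libraries. Without aorta and heart 3 it was lower in bladder by -0.70 (exact permutation, adjusted p = 0.0147), at -0.40, -0.08 and -1.28 against 0.00 to 0.46 in the others, with bladder 3 lowest.

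Caldesmon was the only member not called lower in intestine over the 22 libraries, and over the 18 neither Cald1 nor Lmod1 was. Cald1 (ENSMUSG00000029761, chromosome 6, 34575435 to 34752408, plus strand) was at 8139, 5975 and 7226 in aorta, 3807, 4205 and 8599 in heart and 3884, 3716 and 6219 in kidney. It was at 3800, 3451 and 3214 in bladder, 3495, 3029 and 2769 in lung, 3307, 3021, 3007 and 3051 in intestine and 2751, 2456 and 2352 in stomach. Stomach lay below every other library, and intestine, where all the other members were lower, lay within the range of lung and bladder. Cald1 was higher in aorta by 1.00 ± 0.18 (limma adjusted p = 0.00021) and lower in stomach by -0.74 ± 0.18 (adjusted p = 0.00549), and missed the threshold in intestine (-0.39 ± 0.16, adjusted p = 0.0806). In the 18 libraries it was higher in kidney by 0.49 ± 0.13 (limma adjusted p = 0.0125), beside 10.0% of all genes, and lower in stomach by -0.51 ± 0.13. Its reads rose with depth, from 864 in aorta 1 to 8517 in kidney 1.

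The tropomyosin genes moved with the worth of 1 read. Tpm2 (ENSMUSG00000028464, chromosome 4, 43514711 to 43523765, minus strand) was at 15035, 7831 and 8534 in aorta, 1988, 1769 and 14626 in heart and 1058, 1474 and 2457 in kidney. It was at 1526, 1318 and 1188 in stomach and 1122, 1040, 1019 and 1340 in intestine. Lung and bladder lay between 1476 and 2151. Aorta and heart 3 stood above all the other libraries. Tpm2 was higher in aorta by 2.51 ± 0.40 and Tpm1 (ENSMUSG00000032366, chromosome 9, 66929872 to 66956688, minus strand) by 2.13 ± 0.34 (limma adjusted p = 7.16e-05 and 7.48e-05). Both were lower in intestine, by -1.17 ± 0.35 and -1.04, and these calls ended without the aorta libraries and without intestine 2 or 3, and for Tpm2 also without intestine 1, yet passed over the 18 libraries, at -0.57 ± 0.16 and -0.53 ± 0.14. With edgeR on the reads of the 18 libraries, Tpm2 no longer passed the F test (adjusted p = 0.0615). The log2 ratio of Tpm2 over Tpm1 was -0.05, -0.58 and -0.43 in aorta against -1.02 to -0.43 elsewhere, a mean difference of 0.39 (exact permutation, adjusted p = 0.0242), and the upper end of that range was heart 3. In the 18 libraries the ratio was higher in lung by 0.21 (exact permutation, adjusted p = 0.049). The aorta calls of Tpm2 over Tpm1, of Cnn1 over Cnn2 and the bladder call of Tagln over Tagln2 each ended without 1 library: aorta 1 or 3, aorta 3, and bladder 2 or 3. Leaving 1 of 3 libraries out also raises the smallest p that the permutation can give, so these losses need not mean that the ratio rests on that library.

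Smoothelin showed the pattern of Tagln in a milder form. Smtn, an actin-binding protein found in contractile smooth muscle (ENSMUSG00000020439, chromosome 11, 3467523 to 3490612, minus strand), ran from 1536 in bladder 3 to 9839 in aorta 3. It was at 3305, 2872 and 3032 in lung and 1835, 1630, 1633 and 1998 in intestine, with no overlap. Smtn was higher in aorta by 1.65 ± 0.21 and in heart by 0.64 ± 0.21 (limma adjusted p = 0.0369), and lower in bladder, stomach and intestine by -0.69, -0.75 and -0.85. The heart call ended without heart 3, lung 2, stomach 2 or stomach 3, with rescaling and with array weights, and the stomach call without the aorta libraries or without any 1 stomach library. The bladder call ended with edgeR on the rebuilt reads of 22 libraries, without the aorta libraries, without bladder 2 or 3, and over the 18 libraries. There Smtn was higher in heart by 0.51 ± 0.17 and in lung by 0.45 ± 0.14, and lower in stomach by -0.40 ± 0.14 and in intestine by -0.51 ± 0.13. With edgeR on the reads of these libraries the heart and stomach calls were lost (adjusted p = 0.0733 and 0.0561).

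Taking the 18 libraries, 3 members were higher in heart (Tagln, Smtn and Lmod1), beside 8.74% of all genes, and 4 in lung (these and Cnn2), beside 16.3%. Kidney had 1 higher, Cald1, beside 10.0%. Bladder had 2 higher, Cnn2 and Cnn3, beside 14.9%, and 2 lower, Tagln and Lmod1, beside 20.4%, so these counts lay near the shares over all genes. Stomach had 5 lower, beside 13.5%, and intestine 8 lower, all but Cald1 and Lmod1, beside 15.5%. The members' median log2 difference was 0.36 in heart, 0.40 in lung, -0.36 in stomach and -0.52 in intestine, where the median over all genes lay between -0.06 and 0.09. No member was lower in heart or lung (14.7% and 20.3% of all genes) or in kidney (11.4%), and none was higher in stomach or intestine (19.7% and 19.8%). In limma no member differed between stomach and intestine, where 6.12% of genes did over 22 libraries and 13.5% over 18, or between heart and lung, where 7.16% and 10.6% did. With edgeR on the rebuilt reads of 22 libraries Tpm1 was higher in heart than in lung (adjusted p = 0.0417).

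**Figure D4:**
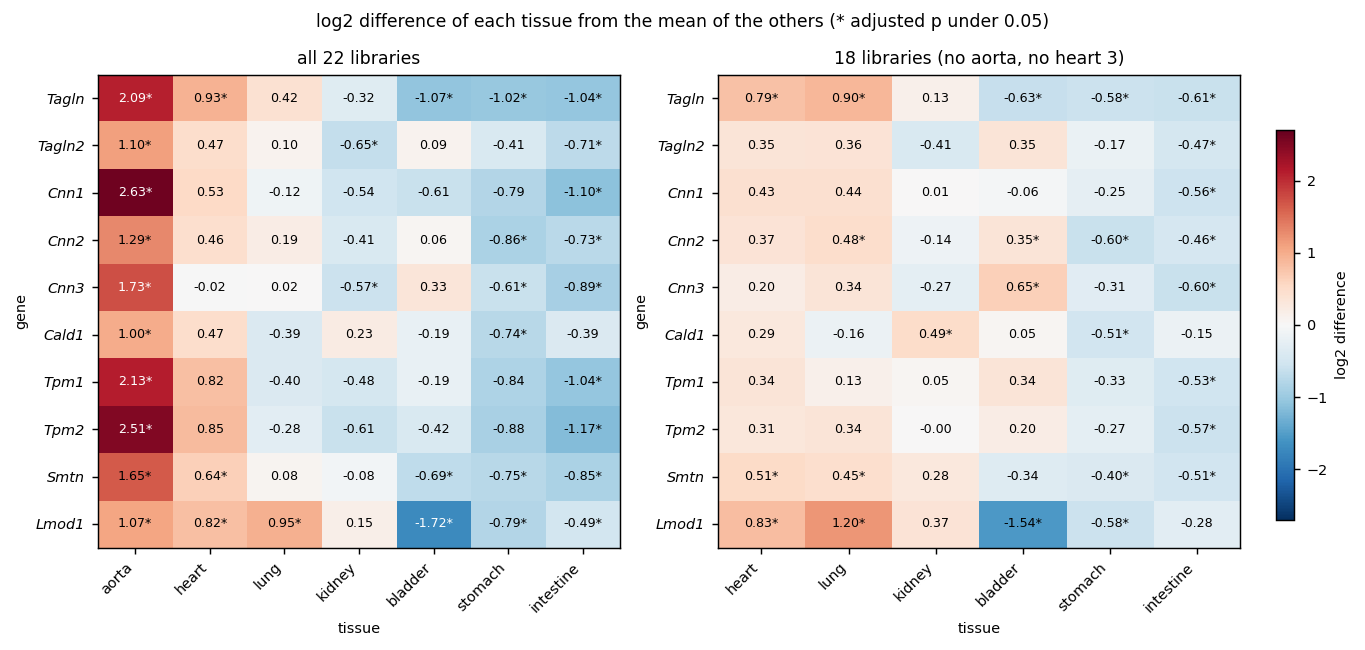
Log2 difference of each tissue from the mean of the other tissues for the 10 genes, fitted by limma over all 22 libraries (left) and over 18 libraries (right), with an asterisk at an adjusted p under 0.05. Every gene is higher in aorta on the left, and on the right Lmod1 in bladder (-1.54) and in lung (1.20) are the widest differences.

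**Figure D5:**
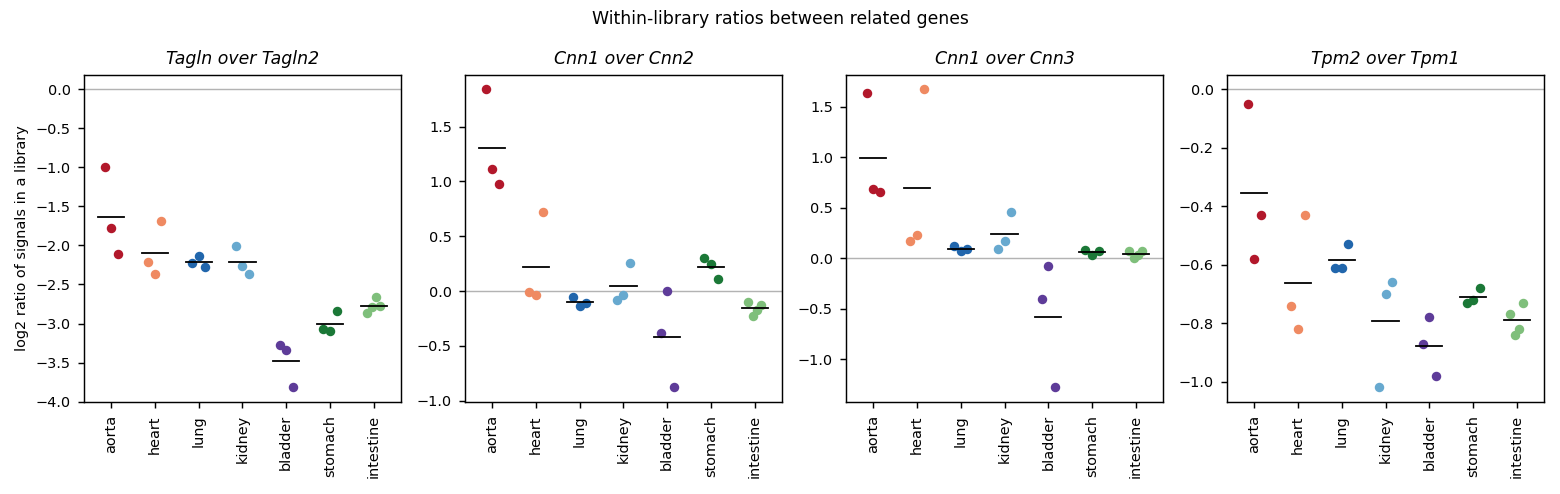
Log2 ratio of the signals of related genes within each library, by tissue; points are libraries and bars are tissue means. Tagln over Tagln2 is lowest in the 3 bladder libraries, and Cnn1 over Cnn2 is highest in the 3 aorta libraries (0.98 to 1.84).

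The genes most like each member were found by Pearson's r of log2(signal + 1) over the 22 libraries among 9793 genes, as a description, since all genes of a library share its depth. Lmod1 was most like Asb2, a subunit that directs muscle proteins to degradation (r = 0.957), and Sh3bgr (r = 0.944). Tagln was most like Cryab (0.972) and Ndrg2 (0.970), and Cnn1 like Cryab (0.979) and Acta2 (0.970). Tpm2 was most like Acta2 (0.994) and Myl9 (0.992), Tpm1 like Dstn (0.995) and Actb (0.992), and Smtn like Dmpk (0.978) and Ppp1cb (0.958). Tagln2 was most like Ldha and Rpl37a (0.974 each), Cnn2 like Rnf187 (0.984) and Fkbp1a (0.983), Cnn3 like Hmgn1 (0.980) and Rpl4 (0.978), and Cald1 like Malat1 (0.918) and Hspb1 (0.898). Over the 18 libraries Lmod1 was most like Foxs1 (0.966) and Lmcd1 (0.957), and none of the first 2 genes of any member was the same as over 22.

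Of 20 other thin filament genes, 15 passed the F test, beside 59.6% of all genes, and 20 did over the 18 libraries, beside 71.1%. In aorta 7 were higher and 3 lower, beside 9.15% and 42.8%, and in intestine 1 was higher and 6 lower, beside 15.5% and 9.97%. Values for single genes of this and the next lists are over the 22 libraries. Of those that passed, cardiac actin Actc1, Smtnl2, Lmod3 and Tagln3 had the widest ranges between tissues. Actc1 was higher in lung by 4.00 ± 0.83 (limma adjusted p = 0.0048), at 2170 ± 356 (SD, n = 3), and lower in bladder by -4.73 ± 0.83, at 20 ± 18.1. The 12 cardiomyocyte markers, Actc1 among them, summed to 3350 to 3683 in lung and 3981 to 6021 in heart. They summed to 283 to 5464 in aorta and 192 to 838 in bladder, and the part of cardiomyocytes was not tested. Lmod3, the skeletal leiomodin, was at 69 ± 14.4 in kidney and 0.667 ± 1.15 in bladder, and Tagln3, the neuronal transgelin, at 33.3 ± 13.5 in stomach and listed at 0 in all 3 heart libraries. Smtnl2 was at 1535 ± 337 in lung and 258 ± 443 in aorta. Actg2, the enteric actin, was lower in kidney by -2.45 ± 0.22 (limma adjusted p = 2.16e-07), and Acta2 was higher in aorta by 2.54 ± 0.38. The other tropomyosins differed less: Tpm3 was higher in heart by 0.67 ± 0.15 and in bladder by 0.58 ± 0.15, and Tpm4 was higher in aorta by 0.46 ± 0.17 (limma adjusted p = 0.0261).

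Of 18 genes of the thick filament and its regulators, 14 passed the F test, beside 59.6% of all genes, and 16 did over the 18 libraries, beside 71.1%. In aorta 9 were higher and 2 lower, beside 9.15% and 42.8%. Pak1, a kinase that phosphorylates caldesmon, was at 413 ± 51.7 in stomach and 313.5 ± 42.2 in intestine, against 10.7 ± 12.2 in heart, where it was lower by -4.44 ± 0.69 (limma adjusted p = 0.000247). Ppp1r14a, which inhibits myosin phosphatase, was higher in aorta by 2.14 ± 0.26 and lower in stomach by -1.42 ± 0.26. The light chain genes Myl9 and Myl6 were higher in aorta by 2.62 ± 0.44 and 1.97 ± 0.30, and Myh11 was lower in bladder by -1.24 ± 0.38 (limma adjusted p = 0.032), at 8695, 4531 and 1379 with bladder 3 lowest. Over the 18 libraries neither Myh11 nor Myl6 passed the F test (limma adjusted p = 0.104 and 0.158).

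Of 10 transcriptional regulators of contractile genes, 7 passed the F test, beside 59.6% of all genes, as did 7 over the 18 libraries, beside 71.1%. In aorta 8 were lower, where 42.8% of all genes were. Smad3 was lower in aorta by -5.64 ± 0.82, Elk1 by -3.67 ± 0.82, Myocd by -3.46 ± 1.03 and Mrtfa by -3.19 ± 0.49 (limma adjusted p = 3.32e-05, 0.00147, 0.00983 and 5.89e-05). Their mean signals in aorta were 17.7 ± 30.6, 45 ± 70.3, 114 ± 191 and 32 ± 25.2 (SD, n = 3). Of the 10 genes, 6 were above 0 in aorta 1, 8 in aorta 2 and 10 in aorta 3. Values of 0 enter these log2 differences, so their size is uncertain. Srf did not pass the F test (limma adjusted p = 0.0978), although it was lower in aorta by -3.33 ± 0.93, and it passed over the 18 libraries (adjusted p = 0.0198). Mrtfa and Elk1 did not pass there (limma adjusted p = 0.0552 and 0.0707). In the aorta libraries 3 reads are worth 28.3, 12.2 and 9.9 signal, so low genes are measured poorly there. Myocd, the coactivator of serum response factor, was at 464 ± 274 in kidney and 56 ± 62.2 in bladder, where Lmod1 was lowest; neither Myocd difference passed.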

How the data were processed

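RNA of sorted cells (at most 10 ng) was sequenced in 22 libraries. Per the submitters' processing notes, the tools included Trimmomatic 0.39, STAR 2.7.10a, Picard 3.0.0, featureCounts 2.0.4 and DESeq2 1.36.0, with build mm39; the counting of strands is not given in the sources used here. The deposited values are a signal, taken as read counts that the authors scaled per library and rounded. In aorta, heart 3, kidney 3 and bladder 3, where 1 read is worth more than 1 signal, 99.91% to 99.99% of values lay on whole multiples. In kidney 3 and bladder 3 a read is worth 1.1337 and 1.3415. Most whole numbers are rounded multiples of these, so the share says little there. In the remaining libraries 1 read is worth less than 1, so multiples cannot be seen this way and the same scaling was assumed. Here the worth of 1 read was found per library from how often each whole value occurred, and reads were rebuilt as signal over that worth. The search was checked on 12 simulated libraries (12 within 1%), made by the same scaling and rounding, so they do not check that assumption. A gene was tested where 3 or more libraries reached a signal of 10 (16917 of 28099). The main test was limma 3.58.1 (R 4.3.3, trend) on log2(signal + 1) with all 7 tissues in 1 model. The fold changes of low genes depend on the added 1. They can be too small, or too large where a shallow library lists 0. The F test, each tissue against the unweighted mean of the others, and 21 tissue pairs were adjusted over all tested genes (Benjamini-Hochberg, threshold 0.05). Ratios within libraries were tested by exact permutation over libraries, 28 tests. Exonic lengths came from GENCODE M21 for 96.2% of genes. Alternatives were a pseudocount of 5, no filter, rescaling, array weights, edgeR 4.0.16 on rebuilt reads, the replicate number as a block, and leaving out libraries; the depth-matched libraries, edgeR without aorta and heart 3, the ratios without them, and leaving out bladder 3 as well were chosen after seeing the data. The genes named were all 10 members, Acta2, Myh11 and Myl9, the 2 genes most like each member (mean signal of at least 100, no predicted genes), the 4 genes of each of 3 lists with the widest range among those passing the F test, and Actg2, Tpm3, Tpm4, Srf and Myocd. The members and lists were chosen with earlier results of these data known. Same-numbered libraries did not deviate together (median r = -0.01 over 63 pairs), so the numbers were not taken as pairs.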

Additional observations from a re-analysis of the deposited data

Results flagged for a closer look

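Intestine was the only tissue with enough libraries for a test of single libraries against their group, by Dixon's criterion, the gap to the nearest library over the whole range. Chance passes about 1 in 20 groups, and 2 of 14 groups tested passed. The Tagln signal of 203 in intestine 4 stood apart from 152 to 160 in the other 3 intestine libraries (gap over range 0.843). Intestine 4 was the shallowest of them, with 1 read worth 0.5772 signal against 0.4216 to 0.4744. Every member but Cald1 had its highest intestine signal in intestine 4. In rebuilt reads Tagln was at 352 there, within the 323 to 380 of the others. The Cald1 signal of 3307 in intestine 1 stood apart from 3007 to 3051 in the others (gap over range 0.853).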

How the results depend on the processing

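All 10 members passed the F test and were higher in aorta whenever 1 library was left out, and no member-by-tissue difference changed sign past the threshold under any alternative run. Higher in aorta (10) fell to 9 with array weights, which lost Tagln2. For single tissues, shares of all genes called are given above for the main fit and the 18 libraries, not for the other settings. The counts under those settings describe the members and do not show whether all genes moved alike. The other counts of members called moved as follows. Higher in heart (3): 1 with rescaling, 1 with array weights, 5 with edgeR, 9 without the aorta libraries, and 0 (without heart 3) to 9 (without heart 2) leaving out 1 library. Higher in lung (1): 2 with array weights or without aorta, 4 without aorta and heart 3 in limma and in edgeR, and 5 without bladder 3 as well; 1 was lower with array weights. Higher in kidney (0): 1 without aorta and heart 3 in limma and in edgeR, and 1 without bladder 3 as well. Lower in kidney (2): 1 with rescaling, edgeR or the replicate block, 0 in every fit without aorta, and 0 to 2 leaving out 1 library. Higher in bladder (0): 1 without aorta, 2 without aorta and heart 3, 1 for that in edgeR, 1 without bladder 3 as well, and 0 to 1 leaving out 1 library. Lower in bladder (3): 2 with edgeR, 2 without aorta and heart 3, 1 without aorta, 1 without aorta, heart 3 and bladder 3, and 1 to 3 leaving out 1 library. Lower in stomach (6): 10 with array weights, 3 without aorta, and 3 (without stomach 2) to 9 (without heart 3) leaving out 1 library. Lower in intestine (9): 5 without aorta and 6 to 10 leaving out 1 library. The share of ratio tests that passed (10.7%) ran from 3.57% without aorta 3 to 21.4% without heart 3. The cause of these moves was not tested, except that leaving libraries out leaves fewer samples. Without the aorta libraries the members' median log2 difference was 0.97 in heart, where that of all genes was -0.37. In the same order the medians were 0.32 and 0.01 in lung, and -0.12 and 0.05 in kidney. They were -0.01 and -0.07 in bladder, -0.49 and 0.13 in stomach, and -0.61 and 0.17 in intestine. With the replicate number as a block, 9093 genes passed the F test against 10087 without it; correlations ran from -0.10 to 0.26 for same-numbered libraries and from -0.29 to 0.22 for others. Of single member-by-tissue results, 1483 stayed called or stayed not called when 1 library was left out, 21 gained a call and 36 lost one. Under the other settings 583 kept theirs, 37 gained a call and 40 lost one, a larger share changed. Depth limits low genes in aorta, where 3 reads are worth up to 28.3 signal.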
